A study of Homo sapiens with 11 samples.

Results

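The genes of the G1/S transition and of DNA replication were examined in Z138, an established human mantle cell lymphoma line. The 47 members were chosen by name and run from E2F1, which switches the programme on, to SLBP, which binds histone mRNA. Each matched 1 row of an expression table of 60656 rows, and all 47 passed the filter on low values described here, as did 15045 rows in all. All 9 expression libraries came from clone #7, a single clone transduced with doxycycline-inducible Cas9-RFP and 2 guides against DNMT3A, a de novo DNA methyltransferase. The 3 groups of 3 libraries were uninduced cells, cells given doxycycline at 2 ng/mL for 5 days, and cells given the same dose for 7 days. The replicates numbered 1 to 3 were vials frozen apart and induced on different days, and each library pooled the RNA of 2 technical duplicates. Cells given doxycycline but carrying no guides were not analysed here, and the effects of the drug, of Cas9 and of the knockout cannot be told apart.

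In G1, E2F transcription factors are held by the retinoblastoma protein. Once cyclin-dependent kinases release them, they drive transcription of cyclin E and of the replication machinery. Origins are licensed when ORC, CDC6 and CDT1 load the MCM2 to MCM7 ring, which CDC45 and the GINS complex then turn into the active helicase. Primase, the replicative polymerases, the PCNA clamp and its RFC loader copy the DNA behind it. In mantle cell lymphoma, cyclin D1 is expressed through a chromosomal translocation, and it acts on the same switch.

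Expression was given as TPM, a relative transcript abundance that corrects for transcript length and sums to 1000000 in each library. Sequencing depth is therefore unknown and no counting interval can be given. Libraries had between 21590 and 22895 genes above 0 TPM. The B cell markers PAX5 and MS4A1 ranged from 15.3 to 35.5 TPM and from 153 to 353 TPM, and the mantle cell markers CCND1 and SOX11 summed to between 1017 and 1197 TPM. T and NK cell markers summed to at most 0.245 TPM, myeloid markers to at most 0.784 TPM, and the erythroid markers were at 0. Of 4 epithelial and fibroblast markers, only COL1A1 reached a group mean of 1 TPM, and the 4 summed to between 7.15 and 16.1 TPM. No fall in transcript of the targeted gene was found at either time. In replicates 1 to 3, DNMT3A had 10.1, 9.71 and 10.4 TPM uninduced, 18.9, 10.9 and 10.0 TPM at day 5, and 10.96, 9.24 and 10.0 TPM at day 7. Its log2 fold change was 0.32 (SE 0.21) at day 5 and -0.0028 (SE 0.21) at day 7, and neither passed limma's test.

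The replication programme was expressed strongly and in every library. Together the 47 genes took between 3791 TPM, in day 5 replicate 1, and 5340 TPM, in uninduced replicate 2. Mean levels over the 9 libraries ran from 6.16 TPM for CCNE1 to 722 TPM for MCM7. The coefficient of variation over the 9 libraries had a median of 12.86% among the members, against 15.1% among the 10493 tested genes with a mean of at least 5 TPM. In bulk RNA, fewer cells in S phase and less of a transcript per cell cannot be told apart.

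**Figure D1:**
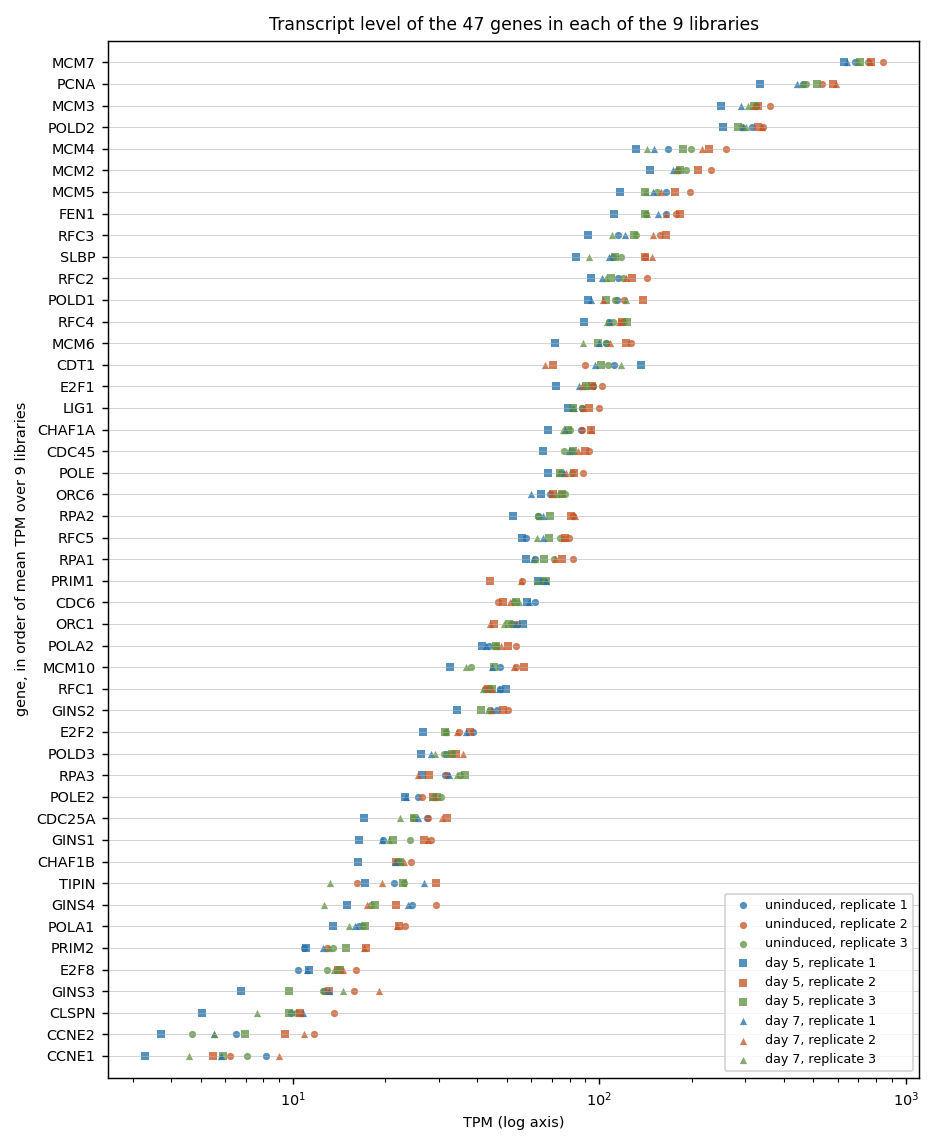
Level of each of the 47 genes in TPM on a log axis, 1 point per library. Colour gives the replicate number and marker shape the group, with genes in order of mean TPM. The means run from CCNE1 at 6.16 TPM to MCM7 at 722 TPM, and each induced group overlaps the uninduced group for every gene except E2F1, CCNE1, MCM2 and MCM3.

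Promoter windows of the members were searched for short motifs. Members were chosen by name from a programme that E2F factors drive, so a high share of E2F letters is no independent result. RefSeq promoter windows (GRCh38.p14, 250 bases before to 50 after a transcript start) were matched for 39 of the 47 members, in 47 windows. E2F8, CCNE2, MCM4, MCM5, GINS4, POLD3, RPA2 and RPA3 had no entry. The E2F motif was searched as TTTCCCGC or TTTGGCGC on both strands. It was found in 19 of the 47 windows (40.4%), 1 for each of 19 genes, against 2.27% of all 35116 promoter windows and 3.63% of the 13216 windows of tested genes. The 21 matches began between 187 bases before and 7 after the start, with a median of 44 before it, and 16 lay within 100 bases of it. The CCAAT box bound by NF-Y was present in 57.5% of member windows and in 34.6% of all windows. The cAMP response element TGACGTCA was present in 6.38% of member windows, those of MCM10, RFC1 and RFC3, against 1.85% of all. The cell cycle homology region TTTGAA, an element of genes that peak in G2 and mitosis, matched in 0 of 47 windows, against 15.2% of all. These are letter matches on either strand, which may overlap one another, and say nothing of whether a factor binds.

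The windows of 6 members with a match are printed here, chosen as those with the smallest p for a difference between replicate numbers, the comparison in which members passed a test. They are GINS1 (chr20:25407423-25407722, plus strand), POLA1 (chrX:24693668-24693967, plus), MCM7 (chr7:100101348-100101647, minus), GINS3 (chr16:58392221-58392520, plus), RFC3 (chr13:33817899-33818198, plus) and CDT1 (chr16:88803539-88803838, plus). Each is written 5′ to 3′ along the gene's strand, and capitals mark the E2F match. In all 6 it lies on the opposite strand, so it reads as the reverse complement of TTTGGCGC in GINS1 and POLA1 and of TTTCCCGC in the others.
GINS1: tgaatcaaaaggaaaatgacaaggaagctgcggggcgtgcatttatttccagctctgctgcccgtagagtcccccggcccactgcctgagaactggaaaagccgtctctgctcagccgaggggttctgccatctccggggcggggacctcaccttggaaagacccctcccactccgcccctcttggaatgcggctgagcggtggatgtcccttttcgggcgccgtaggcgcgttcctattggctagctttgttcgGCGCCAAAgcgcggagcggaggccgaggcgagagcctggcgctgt
POLA1: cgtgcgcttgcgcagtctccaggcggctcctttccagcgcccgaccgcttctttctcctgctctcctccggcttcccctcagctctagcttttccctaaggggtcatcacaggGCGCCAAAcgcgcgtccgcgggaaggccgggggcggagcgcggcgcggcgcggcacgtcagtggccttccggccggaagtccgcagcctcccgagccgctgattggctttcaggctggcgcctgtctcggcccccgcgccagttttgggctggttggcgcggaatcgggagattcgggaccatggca
MCM7: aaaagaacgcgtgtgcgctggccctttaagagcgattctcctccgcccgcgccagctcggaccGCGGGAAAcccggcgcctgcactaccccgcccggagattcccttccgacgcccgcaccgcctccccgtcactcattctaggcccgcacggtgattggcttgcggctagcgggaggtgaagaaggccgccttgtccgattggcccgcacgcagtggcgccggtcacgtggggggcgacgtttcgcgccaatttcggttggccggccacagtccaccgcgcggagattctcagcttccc
GINS3: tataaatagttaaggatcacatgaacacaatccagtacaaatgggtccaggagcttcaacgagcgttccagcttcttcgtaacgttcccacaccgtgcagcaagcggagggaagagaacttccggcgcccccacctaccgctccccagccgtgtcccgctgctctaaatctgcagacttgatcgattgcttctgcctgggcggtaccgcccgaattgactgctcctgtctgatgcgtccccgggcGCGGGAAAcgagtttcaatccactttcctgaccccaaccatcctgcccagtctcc
RFC3: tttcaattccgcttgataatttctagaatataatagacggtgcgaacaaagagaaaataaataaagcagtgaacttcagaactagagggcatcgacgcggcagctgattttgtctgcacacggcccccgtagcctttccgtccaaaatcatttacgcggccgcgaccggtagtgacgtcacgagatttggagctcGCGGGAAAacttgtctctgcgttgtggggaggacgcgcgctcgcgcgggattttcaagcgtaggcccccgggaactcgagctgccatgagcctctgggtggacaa
CDT1: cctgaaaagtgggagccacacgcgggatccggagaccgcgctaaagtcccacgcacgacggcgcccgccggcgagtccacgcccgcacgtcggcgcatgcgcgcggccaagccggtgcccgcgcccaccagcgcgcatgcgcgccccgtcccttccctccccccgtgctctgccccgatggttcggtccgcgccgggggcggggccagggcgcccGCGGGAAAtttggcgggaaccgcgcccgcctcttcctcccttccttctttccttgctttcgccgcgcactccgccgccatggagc

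**Figure D2:**
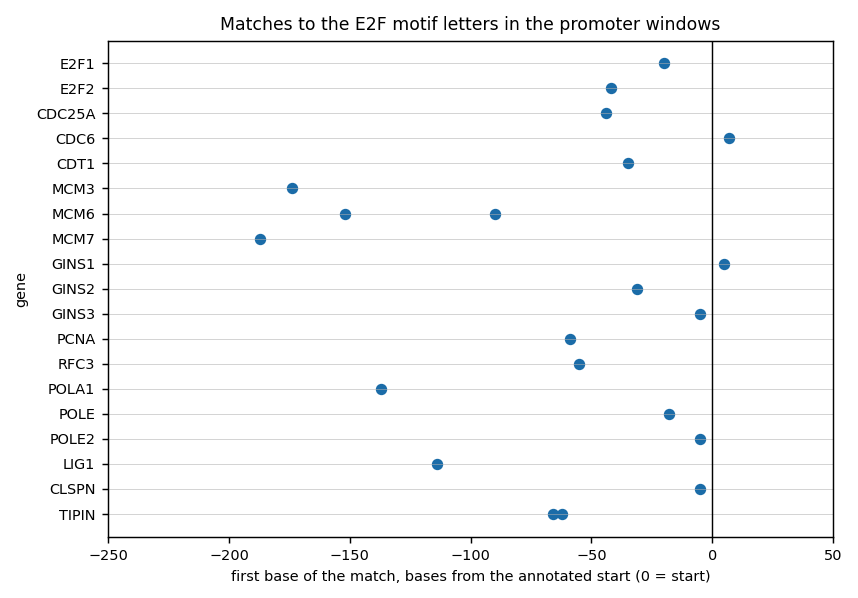
Position of each E2F letter match relative to the transcript start, in bases, for the 19 genes that hold one. Of 21 matches, 16 lie within 100 bases of the start.

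The regulators at the head of the programme had means between 6.16 and 90.4 TPM. E2F1 (chr20:33675477-33686385), the main activator E2F, had the highest level of its role, at 95.5, 102 and 95.02 TPM uninduced, 72.4, 94.87 and 90.7 TPM at day 5, and 85.6, 87.6 and 89.8 TPM at day 7. Every induced library of E2F1 lay below every uninduced one. CCNE1 (chr19:29811991-29824312), the cyclin that activates CDK2 at the G1/S boundary, stood at 8.14, 6.23 and 7.06 TPM uninduced, 3.29, 5.47 and 5.91 TPM at day 5, and 5.82, 8.97 and 4.58 TPM at day 7. Its day 5 libraries lay below all uninduced ones, while its day 7 libraries overlapped both groups. CCNE2 (chr8:94880224-94896693), the second cyclin E, stood at 6.54, 11.7 and 4.69 TPM uninduced, 3.70, 9.43 and 6.96 TPM at day 5, and 5.504, 10.9 and 5.53 TPM at day 7. Replicate 2 was the highest CCNE2 library of each group. The activator E2F2 averaged 33.7 TPM, the repressor E2F8 13.1 TPM and the phosphatase CDC25A, which removes inhibitory phosphates from CDKs, 25.8 TPM.

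Licensing factors, which load the helicase, followed a different order from most members. CDT1 (chr16:88803789-88809258), the loading factor destroyed once S phase begins, stood at 112, 90.0 and 107 TPM uninduced, 137, 70.5 and 101 TPM at day 5, and 96.5, 66.4 and 117 TPM at day 7. Replicate 2 was the lowest CDT1 library in each group. CDC6, the ATPase that recruits MCM to origins, stood at 61.6, 46.8 and 52.6 TPM uninduced, 58.2, 48.3 and 53.4 TPM at day 5, and 58.7, 51.2 and 54.5 TPM at day 7. All 3 replicate 2 libraries of CDC6 lay below the other 6. The origin recognition subunit ORC1 had the lowest mean of the role, at 50.7 TPM, and stood at 52.1, 54.1 and 51.6 TPM uninduced, 56.2, 45.4 and 50.6 TPM at day 5, and 53.3, 44.0 and 48.7 TPM at day 7. ORC6, another subunit, averaged 70.5 TPM.

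As a role, the MCM genes had the highest levels. MCM7 (chr7:100092728-100101397) stood at 686, 841 and 755 TPM uninduced, 630.3, 769 and 708 TPM at day 5, and 642, 764 and 699 TPM at day 7. It made up between 41.7% and 46.8% of the summed TPM of MCM2 to MCM7 in each library. MCM4 (chr8:47960941-47978160) stood at 168, 259 and 199.9 TPM uninduced, 132, 228 and 187 TPM at day 5, and 151, 217 and 143 TPM at day 7. For both genes all 3 replicate 2 libraries lay above the other 6. The ring is built with 1 copy of each subunit, yet the other subunits averaged 314 TPM for MCM3, 186 TPM for MCM2, 156 TPM for MCM5 and 103 TPM for MCM6. MCM5 (chr22:35400140-35455031) stood at 166, 197 and 154 TPM uninduced, 116, 177 and 142 TPM at day 5, and 150.2, 159 and 142 TPM at day 7. MCM10, which activates the assembled helicase and is no part of the ring, had the lowest mean of the role. It stood at 47.4, 53.4 and 38.0 TPM uninduced, 32.6, 56.8 and 45.5 TPM at day 5, and 44.6, 52.6 and 36.8 TPM at day 7. MCM7 carries the microRNAs MIR25, MIR93 and MIR106B in an intron and overlaps AP4M1, one of 26 members whose span overlaps another annotated gene.

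Among the partners that complete the CMG helicase, CDC45 had the highest level, at 81.3, 92.8 and 76.9 TPM uninduced, 65.7, 89.9 and 82.1 TPM at day 5, and 79.5, 85.5 and 80.5 TPM at day 7. The 4 GINS subunits, which form a complex with 1 copy of each, differed in level, with means of 44.1 TPM for GINS2, 22.7 TPM for GINS1, 20.1 TPM for GINS4 and 13.0 TPM for GINS3. GINS1 (chr20:25407673-25448563) stood at 19.7, 28.1 and 24.2 TPM uninduced, 16.4, 26.7 and 21.2 TPM at day 5, and 19.6, 27.6 and 20.6 TPM at day 7. Replicate 1 was the lowest and replicate 2 the highest GINS1 library in each group. GINS3 (chr16:58392471-58406147) stood at 12.6, 15.9 and 12.5 TPM uninduced, 6.76, 13.1 and 9.72 TPM at day 5, and 13.1, 19.1 and 14.5 TPM at day 7. For each replicate number, GINS3 was lowest at day 5 and highest at day 7. GINS4 stood at 24.5, 29.3 and 17.9 TPM uninduced, 15.0, 21.6 and 18.6 TPM at day 5, and 23.7, 17.5 and 12.6 TPM at day 7, so the groups overlapped.

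PCNA (chr20:5114953-5126622), the sliding clamp that tethers polymerases to DNA, was second to MCM7 at 462, 535 and 472 TPM uninduced, 336, 579 and 513 TPM at day 5, and 441, 592 and 460.2 TPM at day 7. Its day 5 libraries were both lower and higher than the whole uninduced group. Within the clamp loader, RFC3 averaged 130.3 TPM, RFC2 115 TPM, RFC4 111 TPM and RFC5 68.6 TPM. RFC1, the large subunit, averaged 44.9 TPM and stood at 47.4, 42.5 and 43.7 TPM uninduced, 49.6, 43.2 and 44.6 TPM at day 5, and 46.97, 44.6 and 41.6 TPM at day 7. RFC2 (chr7:74231502-74254399) stood at 115, 143 and 119 TPM uninduced, 93.7, 128 and 109 TPM at day 5, and 102, 122 and 105 TPM at day 7. RFC1 spanned a narrow range, whereas replicate 2 was the highest RFC2 library in each group.

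Of the polymerase genes, POLD2, an accessory subunit of the lagging-strand polymerase delta, had the highest level, at 315, 342 and 291 TPM uninduced, 254, 331 and 283 TPM at day 5, and 296, 339 and 300.1 TPM at day 7. POLA1 (chrX:24693918-24996986), the catalytic subunit of polymerase alpha that extends primers, stood at 16.5, 23.2 and 17.0 TPM uninduced, 13.5, 22.2 and 17.2 TPM at day 5, and 15.9, 21.9 and 15.2 TPM at day 7. The 3 replicate 2 libraries of POLA1 fell between 21.9 and 23.2 TPM and the other 6 between 13.5 and 17.2 TPM. The catalytic subunits of polymerases delta and epsilon, POLD1 and POLE, averaged 111 TPM and 77.5 TPM. The accessory subunits POLA2, POLD3 and POLE2 averaged 46.4, 31.3 and 27.2 TPM. PRIM1, the catalytic subunit of primase, averaged 60.6 TPM, with 65.9, 55.8 and 64.8 TPM uninduced, 63.3, 44.1 and 66.9 TPM at day 5, and 67.1, 55.4 and 62.5 TPM at day 7. Its replicate 2 was the lowest library in each group. The large primase subunit PRIM2 had the lowest mean of the role and stood at 10.9, 12.9 and 13.5 TPM uninduced, 11.02, 17.3 and 14.9 TPM at day 5, and 12.5, 17.1 and 13.1 TPM at day 7. PRIM2 has near-identical copies in the genome that the authors' counting could split, so its level is uncertain.

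FEN1, the nuclease that trims Okazaki fragments, stood at 165, 177 and 142 TPM uninduced, 111, 184 and 141 TPM at day 5, and 155, 164 and 143 TPM at day 7. LIG1, the ligase that joins the fragments, averaged 87.0 TPM. The single-strand binding protein RPA is a complex of 3 subunits, of which RPA1 averaged 67.7 TPM and RPA2 69.1 TPM. The smallest, RPA3, had 31.3, 31.7 and 35.2 TPM uninduced, 26.4, 27.7 and 36.6 TPM at day 5, and 32.3, 25.5 and 34.3 TPM at day 7. Replicate 3 was the highest RPA3 library of each group, unlike that of RPA1 and RPA2, which was replicate 2.

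SLBP, which binds the stem-loop of histone mRNA, had the highest level of the last role, at 111, 141 and 118 TPM uninduced, 84.0, 141 and 113 TPM at day 5, and 108, 149 and 92.3 TPM at day 7. CLSPN, which carries the checkpoint signal at stalled forks, had the lowest, at 9.84, 13.6 and 10.2 TPM uninduced, 5.05, 10.5 and 9.69 TPM at day 5, and 10.8, 10.6 and 7.65 TPM at day 7. Day 5 replicate 1 was the lowest library for both. CHAF1A and CHAF1B, subunits of the assembly factor that places histones on new DNA, averaged 82.7 and 21.8 TPM. CHAF1B stood at 22.2, 24.2 and 21.9 TPM uninduced, 16.3, 21.7 and 22.4 TPM at day 5, and 21.6, 23.1 and 22.5 TPM at day 7, with only day 5 replicate 1 standing apart. TIPIN, a fork protection factor, averaged 21.0 TPM and ranged from 13.2 TPM in day 7 replicate 3 to 29.3 TPM in day 5 replicate 2.

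The first comparison asked whether induction of the DNMT3A knockout altered the replication programme. No member passed the test at day 5 or day 7, but most members had slightly lower values after induction. At day 5, 43 of 47 had a log2 fold change below 0, where 54.7% of all tested genes did, with a median of -0.12 among members and -0.02 among all. At day 7, 41 of 47 were below 0 (55.1% of all genes), with medians of -0.09 and -0.02. For both induced groups together, 42 of 47 were below 0 (55.9% of all genes). All 7 MCM genes were on the lower side at both times, with medians of -0.18 at day 5 and -0.18 at day 7. For E2F1 the log2 fold change was -0.19 (SE 0.12) at day 5 and -0.15 (SE 0.12) at day 7. For CCNE1 it was -0.49 (SE 0.25), for CLSPN -0.42 (SE 0.26) and for MCM5 -0.26 (SE 0.16) at day 5. At day 7 it was -0.41 (SE 0.25) for GINS4, -0.29 (SE 0.24) for MCM4 and -0.19 (SE 0.14) for RFC2. Both days share the same uninduced libraries, so their common direction is no repeat of one another.

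Values were compared on the log2(TPM + 1) scale with limma, adjusted by Benjamini-Hochberg over all 15045 rows. With a threshold of 0.05, limma called 0 members at day 5 (0.00665% of all tested genes), 0 at day 7 (0% of all) and 0 for both induced groups against uninduced (0.00665%). At an unadjusted p under 0.05 it also found 0 members in each of these comparisons, where 1.99%, 2.24% and 2.16% of all genes passed. With the replicate number as a block, 3 members (GINS3, MCM5 and RFC2) passed unadjusted at day 5, against 5.12% of all genes, and 2 (MCM4 and RFC2) at day 7, against 5.98%. Between day 7 and day 5 it was 1 (GINS3), against 3.93%. For both induced groups together the blocked count was 4 (MCM4, MCM5, MCM7 and RFC2), against 6.01%, and its smallest adjusted p in limma among members was 0.788. Day 5 libraries lay entirely below the uninduced ones for 2 members, CCNE1 and E2F1, where 3.22% of all genes did so. Day 7 libraries lay entirely below for 3, E2F1, MCM2 and MCM3, against 4.17%. MCM2 stood at 181, 231 and 192 TPM uninduced, 146, 209 and 183 TPM at day 5, and 174, 179 and 178 TPM at day 7, so its highest day 7 library was just under its lowest uninduced one. MCM3 stood at 325, 362 and 324 TPM uninduced, 249, 331 and 319 TPM at day 5, and 289, 321 and 306 TPM at day 7, where the gap was also narrow. No member lay entirely above the uninduced libraries at day 5 (2.34% of all genes) or at day 7 (1.97%). Each day 5 library lay below the uninduced library of its own number for 19 members, 40.4% of them against 14.9% of all genes, and each day 7 library for 17 members, 36.2% against 16.8%. Intervals from the fit without the block were wide. The 95% limits of single members reached from -1.06 to 0.78 at day 5 and from -0.97 to 0.83 at day 7. The median SE of members on either day was 0.16 in that fit and 0.10 with the block.

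The day 5 shift was mostly lost without 1 library. Day 5 replicate 1 was the lowest of all 9 libraries for 36 members, where 19.7% of all tested genes had their lowest value there. It was the highest for CDT1, ORC1 and RFC1, against 18.4% of all genes. Without it, the day 5 median was -0.01, with 25 of 47 members below 0. Within replicate number 1 the median member difference at day 5 was -0.30, within number 2 -0.07 and within number 3 -0.02. For all genes these medians were -0.01, -0.004 and -0.02. At day 7 the member medians were -0.06, -0.10 and -0.08, and those of all genes -0.0015, -0.004 and -0.05. The day 7 median was -0.02, with 29 of 47 below 0, without day 7 replicate 3. Without uninduced replicate 2 it was -0.04, again with 29 of 47. DNMT3A transcript was itself highest in day 5 replicate 1, at 18.9 TPM, and its part in the result was not tested. The epithelial and fibroblast markers summed to between 10.3 and 16.1 TPM uninduced, between 7.15 and 10.1 TPM at day 5 and between 7.47 and 11.8 TPM at day 7, nearly all of it COL1A1, and their part was not tested either.

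**Figure D3:**
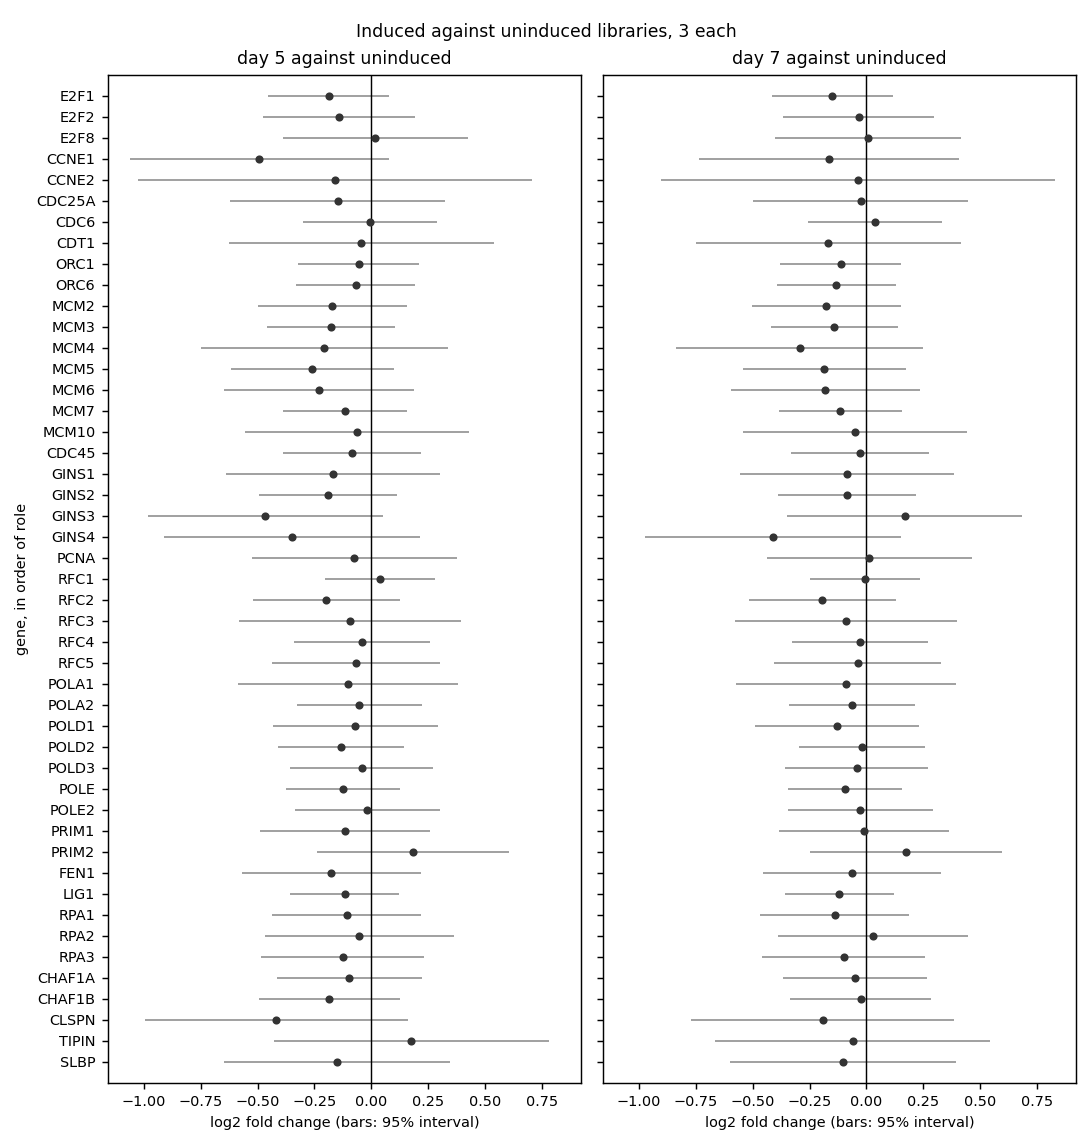
Log2 fold change of the members at day 5 and day 7 against uninduced, grouped by role, from limma on log2(TPM + 1). Most points sit just below 0, with a median of -0.12 at day 5 and -0.09 at day 7, and none passed the test.

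Between day 7 and day 5 no member passed the adjusted test. Of 47, 16 were lower at day 7, against 51.2% of all genes, with a median log2 difference of 0.03. limma called 0 members (0.00665% of all genes), and 1 passed an unadjusted p under 0.05, against 1.68% of all. That gene was GINS3, whose log2 difference was 0.63 (SE 0.23), with day 7 higher in all 3 replicate numbers. Its adjusted p in limma was 0.9998, and 0.990 with the replicate block. No member's day 7 libraries lay entirely below (2.46% of all genes) or above (1.85%) its day 5 ones. Without day 5 replicate 1, the median difference was -0.09 and 38 of 47 members were lower at day 7. Without day 7 replicate 2 it was -0.04, with 28 of 47 lower, so the direction of the median turned with either library left out.

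Between replicate numbers 7 members (14.9%) passed limma's F test, a share near the 12.6% of all tested genes. No member passed between days, where at most 0.00665% of all genes did. In replicate number 2, all 7 MCM genes, PCNA, 3 RFC subunits and CCNE2 had their highest value within each group, while CDC6, CDT1 and PRIM1 had their lowest. In all, 27 members had their highest value there in all 3 groups, against 20.2% of all tested genes, and the 3 named had their lowest, against 14.4%. All 3 replicate 2 libraries lay above the other 6 for 20 members (14.9% of all genes) and below them for the same 3 (9.72%). Number 1 was the lowest in all 3 groups for 11 members (7.65% of all genes) and the highest for CDC6 and RFC1 (11.1%). Number 3 was the highest for ORC6 and RPA3 (3.69%) and the lowest for none (6.62%). The order of the means over a number's 3 libraries was lowest in 1, then 3, then 2 for 35 of 47 members. The labels do not say that libraries of the same number in different groups share a vial. If they do, this compares 3 vials with no repeat of any, and p-values measure only the spread of libraries around them.

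With group and number in 1 limma model, an F test over the numbers called 7 members, 14.9% of them against 12.6% of all genes. They were MCM4 (adjusted p = 0.0249), GINS1 (0.0280), POLA1 (0.0342), MCM7 (0.0405), RFC2 (0.0438), CCNE2 (0.0459) and RPA1 (0.0499). Number 2 was higher than number 1 in 14 called members, against 9.05% of all genes called higher. It was lower in 2 called members, CDC6 and CDT1, against 8.55% of all genes called lower. Of the 47, 40 were higher in number 2, with a median log2 difference of 0.26, where 52.3% of all genes were higher with a median of 0.02. The 14 comprised CCNE2 and E2F8 of the regulators, MCM4 and MCM7, GINS1 and GINS3, PCNA, RFC2, RFC3 and RFC5, POLA1, RPA1, RPA2 and SLBP. Their fold differences ran from 1.21 for MCM7 to 1.90 for CCNE2.

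By level, CCNE2 averaged 10.7 ± 1.17 TPM (SD, n = 3) in number 2 and 5.25 ± 1.43 TPM in number 1, a log2 difference of 0.92 (SE 0.21, limma adjusted p = 0.0257). MCM4 averaged 234 ± 21.9 TPM in number 2 and 150.4 ± 17.8 TPM in number 1, a log2 difference of 0.64 (SE 0.11, limma adjusted p = 0.0105). GINS1 averaged 27.5 ± 0.716 TPM and 18.6 ± 1.89 TPM, a log2 difference of 0.55 (SE 0.09, limma adjusted p = 0.0116). These 3 genes were higher in number 2 in all 3 groups. CDT1 went the other way, with 75.7 ± 12.6 TPM in number 2 and 115 ± 20.3 TPM in number 1, a log2 difference of -0.59 (SE 0.15, limma adjusted p = 0.0368). The ratio of PCNA to CDT1 was 5.94, 8.21 and 8.91 in replicate 2 of the uninduced, day 5 and day 7 groups. In the other 6 libraries it lay between 2.46 and 5.06. Between numbers 3 and 1, limma called 0 members (0.0399% of all genes higher and 0.0798% lower), with a smallest adjusted p of 0.255. Between 3 and 2 it called 0 (3.20% and 4.62%), with a smallest of 0.0512.

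How many members were called depended on single libraries. Between numbers 2 and 1, 16 members were called in all, 34.0% of them against 17.6% of all genes. Without day 5 replicate 2, 0 members were called, against 4.72% of all genes. Without day 5 replicate 1, uninduced replicate 2 or day 7 replicate 2, 3 were called each time, 6.38% of members against 7.92%, 9.61% and 7.95% of all genes. In these 4 fits the members' share was thus below that of all genes. The direction held in every such fit, with 38 to 42 of 47 members higher in number 2. Markers of the cell type itself moved with the number too. PAX5 and MS4A1, B cell genes, were higher in number 2 than in number 1 by 0.95 and 0.88 on the log2 scale (limma adjusted p = 0.0025 and 0.0101), and SOX11 was lower, at -0.72 (limma adjusted p = 0.0056). Their part in the result was not tested.

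**Figure D4:**
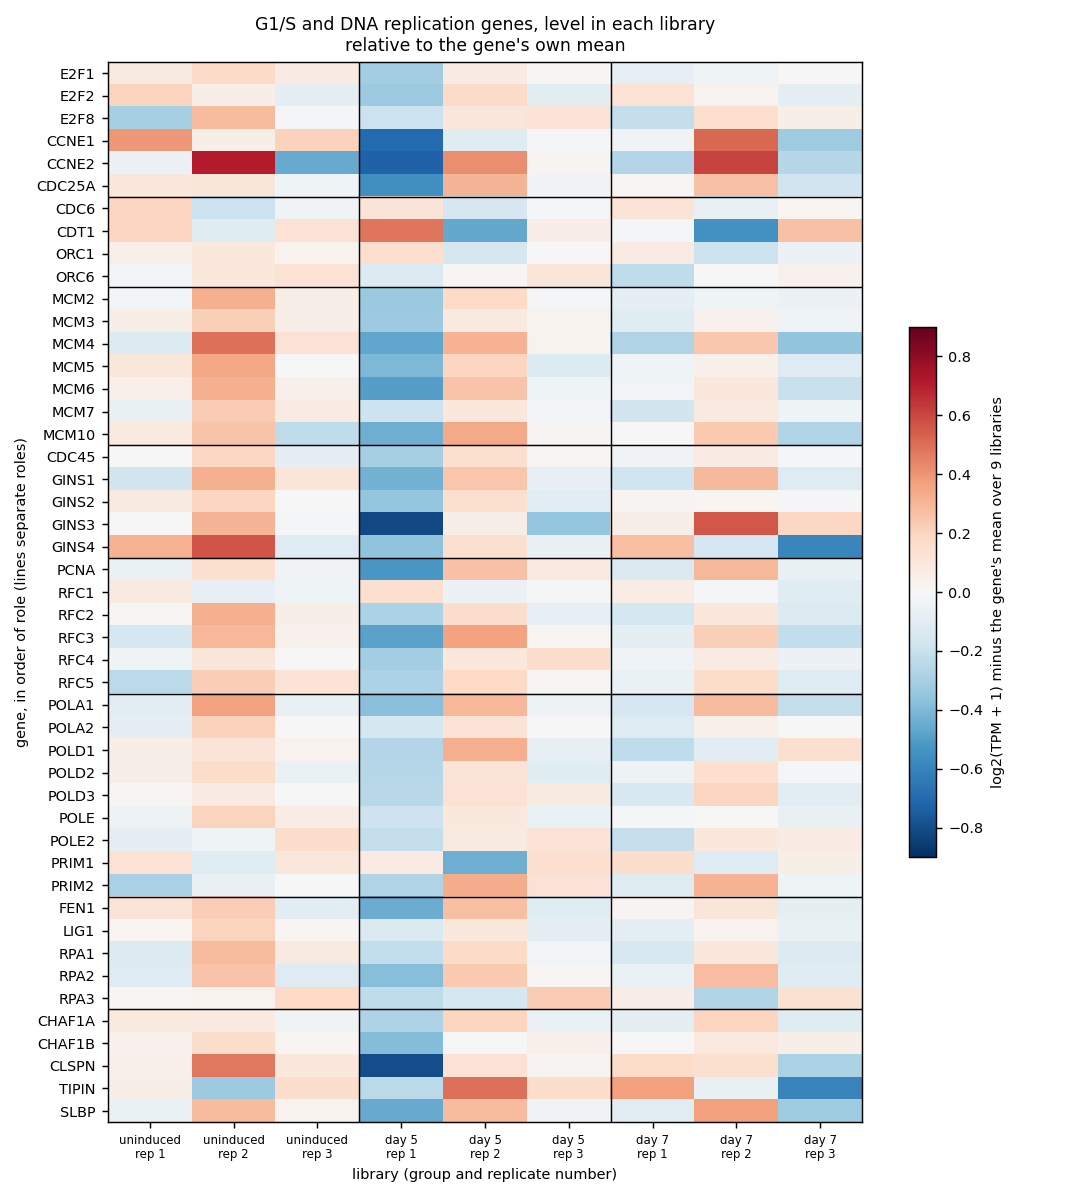
Log2 deviation of each member from its own mean over the 9 libraries, by role, with libraries in columns. The day 5 replicate 1 column is the lowest for 36 members, and replicate 2 columns are highest within each group for 27.

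**Figure D5:**
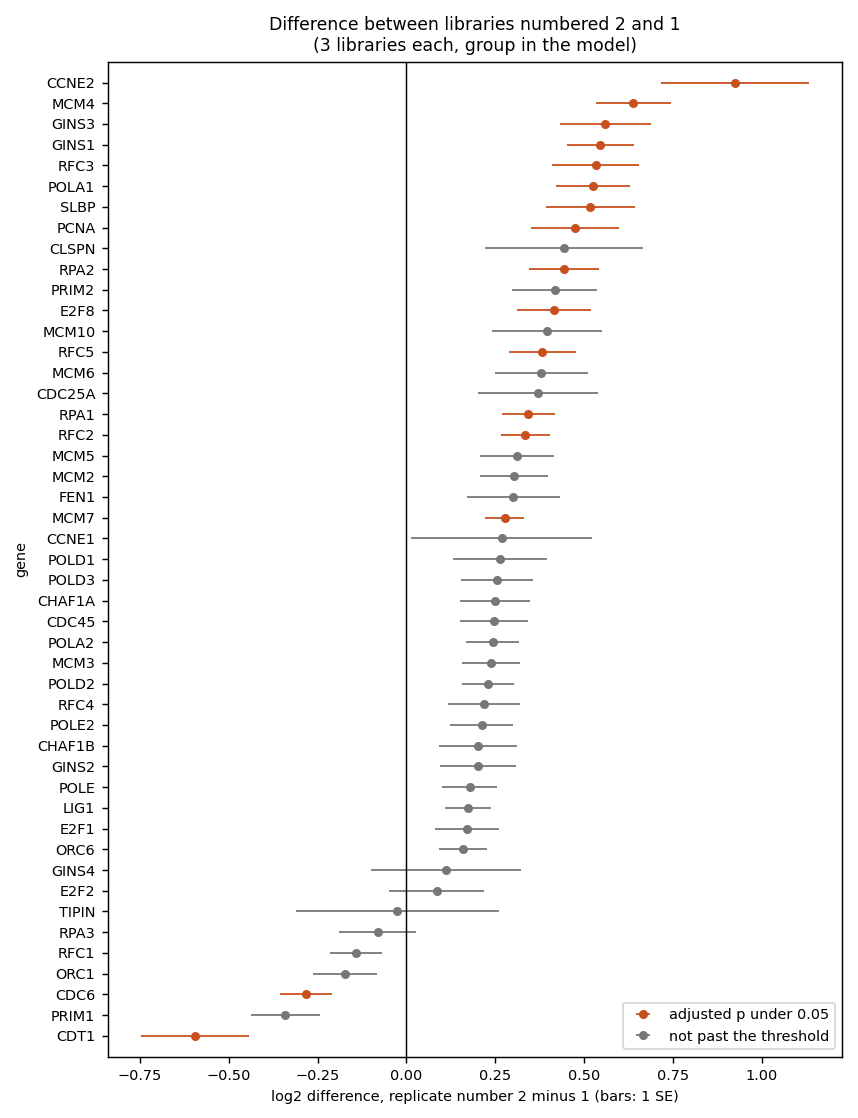
Log2 difference between replicate numbers 2 and 1 for each member, with bars of 1 SE from limma. Points lie above 0 for 40 of 47 members, and CDT1 and CDC6 are the 2 called below 0.

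The difference between numbers was also read by E2F match, as a description with no test. The median log2 difference between numbers 2 and 1 was 0.24 for the 19 genes with a match, of which 8 were called. It was 0.26 for the 20 without, of which 4 were called. The 8 members with no promoter entry, CCNE2 and MCM4 among them, had a median of 0.36, and 4 were called. Among all genes 17.6% were called. CDC6 and CDT1, the members called lower, both hold a match, as do GINS1, POLA1 and MCM7, called higher.

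Other genes of the pathway were read from 5 related lists. None of the genes in them passed limma's adjusted test on either day. Between numbers 2 and 1, 5 of 24 tested genes of the RB, CDK and E2F list were called higher and 2 lower. Among all genes 9.05% were called higher and 8.55% lower. The list as a whole had 12 of 24 genes higher in number 2, with a median log2 difference of 0.04. The retinoblastoma gene RB1 was higher (log2 difference 0.75, limma adjusted p = 0.0044), as were E2F4 (0.62, adjusted p = 0.0068) and the E2F partner TFDP1 (0.49, adjusted p = 0.0080). The CDK inhibitor CDKN1A was lower (-0.73, adjusted p = 0.0023), and so was CDK6 (-0.70, adjusted p = 0.0159). CDKN1A stood at 146, 85.5 and 87.0 TPM uninduced, 147, 94.7 and 96.4 TPM at day 5, and 165, 95.3 and 104 TPM at day 7. Replicate 1 of each group was thus far above both other replicates.

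The counts of the other lists stand against the same shares of all genes, 9.05% called higher and 8.55% lower. Of 19 other licensing and initiation genes, 4 were called higher in number 2 and 0 lower. Of 30 other fork and polymerase genes, 8 were called higher, with POLE3, a histone-fold subunit of polymerase epsilon, at 0.80 (limma adjusted p = 0.0046), and 1 lower, POLD4 at -0.95 (limma adjusted p = 0.0192). Of 11 nucleotide supply genes, 3 were called higher (DCK, CTPS1 and TYMS) and 0 lower. TK1, the S-phase thymidine kinase, had a log2 fold change of -0.31 (SE 0.12) at day 7 with an unadjusted p of 0.0315 in limma. RNASEH2B, of the fork and polymerase list, went the other way at day 5. Its log2 fold change was 0.41 (SE 0.14), with an unadjusted p of 0.0180 in limma. Neither gene passed the adjusted test. Of 20 G2/M genes, 11 were called higher in number 2 and 0 lower, with CCNB1 at 0.58 and CDK1 at 0.44. Higher values in number 2 were thus seen in G2/M genes as well as in replication genes. G2/M genes were lower at day 7 than at day 5 in 20 of 20 cases, with a median log2 difference of -0.09 and 0 called.

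The deposited chromatin immunoprecipitation peaks, from 1 library of wild-type Z138 with 1 library of the knockout clone, given doxycycline at 2 ng/mL for 7 days, as its negative control, were set against member positions in hg38. The list held 482 peaks in the whole genome, and no member had one within 10000 bases. The share of all genes with a peak that near was not computed, so whether this count is particular to the members is unknown. The nearest peaks lay 187119 bases from LIG1, 253750 bases from POLD1 and 301460 bases from ORC6.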

How the data were processed

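Messenger RNA of 9 libraries of Z138 clone #7 was sequenced with a stranded kit, per the labels' protocols. The authors deposited gene expression as TPM in 1 table whose columns each sum to 1000000. Tools named without roles in the submitters' processing notes are HISAT2 2.1, StringTie 1.3.4, DESeq2, Genrich 1.0, deepTools and ChIPseeker, with build hg38. The annotation release, and whether strand was used in counting, were not given in the sources used here, so reads of overlapping genes may be shared. The deposited peak list gives for each peak a score and the −log10 of the p-value, as the authors' caller wrote them. The peaks were used here by position, and by −log10 p in 1 alternative. Uninduced libraries appear in the table as day 0 and were matched by replicate number.

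TPM was transformed to log2(TPM + 1), which understates changes of low genes. The filter left 15045 rows that reached 1 TPM in 3 or more libraries. limma 3.58.1 in R 4.3.3 was fitted to all 9 libraries with the 3 groups as the only term, an intensity trend and Benjamini-Hochberg adjustment over all rows, with a threshold of 0.05. A second model had group and replicate number. The scripts were tested on simulated data. Figures and motif matches used Python 3.11.15, pandas 2.3.3 and matplotlib 3.10.9. Gene positions and promoters are RefSeq's for GRCh38.p14.

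The members and the other gene lists were chosen with earlier results of these data known. Every member is described. Values in every library are given for the highest and lowest member of each role, the 4 with the smallest p in each comparison of days, the 6 with the smallest p over replicate numbers, and some others whose libraries are set in order. Other genes are up to 3 per list with the smallest p. CDK6, TFDP1, POLD4 and the named marker genes were chosen after their values were seen.

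The replicate numbers were checked for pairing by correlating deviations from group means. The correlation of same-numbered libraries ranged from 0.0805 to 0.436 and was over 0.1 in 8 of 9 pairs, including all pairs with the uninduced group. Libraries of different numbers ranged from -0.414 to 0.186. The numbers were taken as pairs for the comparisons with uninduced cells, and the blocked counts stand beside the result. Both fits' counts were known at that point. The SEs and intervals printed for comparisons of days are from the fit without the block. Alternatives were a pseudocount of 0.1, other filters, scalings and variance trends, leaving out each library, and only the groups compared.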

Additional observations from a re-analysis of the deposited data

How the results depend on the processing

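No member passed limma's adjusted test between days under any alternative run. The median log2 difference of members between day 7 and day 5, 0.03, turned to -0.09 without day 5 replicate 1 and to -0.04 without day 7 replicate 2, and no other median of the members between days changed sign. With the replicate block, which pairs libraries by number, the calls among members stayed at 0 in every comparison of days, and the median log2 fold change at day 5 remained -0.12. The number of all genes called moved as follows. Without a filter it was 3 at day 5, 1 at day 7, 4 for day 7 against day 5 and 0 for both days. With only the groups compared it was 4 at day 7 and 5 for day 7 against day 5. Leaving out single libraries gave 1 to 3 at day 5, 0 to 3 at day 7, 1 to 3 between days and 1 to 4 for both.

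Over replicate numbers, members called in the F test are given with the share of all genes called in the same fit. They were 0 without a filter (1.21%) and 11 with a minimum of 5 TPM (19.4%). With median-of-ratios scaling there were 3 (12%), and with quantile normalisation 3 (11%). There was 1 without the intensity trend (6.9%) and 14 without a group term (17.4%). Leaving out a library gave 0 to 5 (1.64% to 10.7%). All genes called in the F test were 368 without a filter, 1038 without the trend and 247 to 1606 when leaving out a library. For number 2 against 1, members called were 7 without a filter (4.04% of all genes) and 8 without the trend (14%). Leaving out a library gave 0 to 13 members (4.72% to 14.9% of all genes). All genes called in this comparison were 1227 without a filter and 710.0 to 2244 when leaving out a library. For number 3 against 2, members called were 3 with a minimum of 5 TPM and 4 without a group term. Leaving out a library gave 0 to 12, the highest being without day 5 replicate 1. The share of all genes called was not computed for these fits, so these counts are not particular results about the members. The share of member promoters with an E2F match was 59.6% with 7-letter cores, against 9.23% of all windows and 13.9% of those of tested genes. In the 200 bases before the start alone it was 29.8%, against 1.55% and 2.43%. The cause of these moves was not tested. Of the alternative values for single members, 380 kept their side of the threshold and 40 did not. All 40 were calls between numbers 2 and 1 that were lost. Many of the 380 were comparisons of days, where no member was called at first, so none could lose a call. The pooled count thus overstates how stable the calls between numbers were. Depth is unknown, and 3 libraries a group limit what can be called.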
